A study of Mus musculus with 11 samples.

Results

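Nkd2 and 9 other genes of the canonical Wnt pathway were followed across 4 groups of mouse embryonic stem cells in which the DNA-binding protein CTCF can be degraded. The members are Nkd1, Nkd2, Axin2, Lef1, Tcf7, Tcf7l1, Sp5, Cdx1, Rnf43 and Znrf3, chosen by symbol. All 10 are among the 55228 symbols of the count table, and all 10 passed the filter on low counts that left 16420 genes to test. The set was drawn up around Nkd2, which had stood out by its own values after auxin and between the FL and H373R groups. Nkd2 is therefore described here by its levels and ratios, with no test, and counts of changed genes are over the 9 other members. These 9 and the pathway lists were also chosen with earlier results of these data known. Their counts beside the shares of all tested genes are therefore descriptions.

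All libraries come from the same embryonic stem cell line, EN52.9.1 (CTCF-AID), in which CTCF carries an auxin-inducible degron. This CTCF is degraded when auxin (indole-3-acetic acid) is added at 500 µM. Cells were grown in serum with leukaemia inhibitory factor. The EV untreated group (n = 3) had no auxin and is labelled wild-type, although it carries the degron like the others. The EV auxin group (n = 2) had auxin and is labelled as depleted of CTCF. The FL auxin group (n = 3) had auxin and reintroduced CTCF labelled FL. The H373R auxin group (n = 3) had auxin and reintroduced CTCF with the H373R change, and its library titles read ZF4. The labels give neither the duration of auxin nor the promoter of the reintroduced CTCF, no degron-free line given auxin was analysed here, and nothing states that libraries of a group came from separate cultures, so p-values measure only the spread between these libraries.

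Wnt proteins bind Frizzled and LRP receptors at the cell surface and stop a destruction complex built on Axin and APC from marking beta-catenin for breakdown. Beta-catenin then enters the nucleus and binds TCF/LEF factors on DNA, turning on targets that include inhibitors of the pathway itself. In mouse embryonic stem cells, Wnt activity favours self-renewal, largely by relieving repression by Tcf7l1. Among the members, Nkd1 and Nkd2 (naked cuticle proteins) bind Dishevelled, Axin2 is a scaffold of the destruction complex, and Rnf43 and Znrf3 are membrane ubiquitin ligases that remove Frizzled receptors. Lef1, Tcf7 and Tcf7l1 are the DNA-binding partners of beta-catenin, and Sp5 and Cdx1 are transcription factors that Wnt induces.

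Total counts per library ranged from 13465241 to 29902246. EV untreated replicate 1 stood apart from its group. Its chi-square per degree of freedom, a ratio of variance to sampling variance, was 15.9 against replicate 2 and 14.9 against replicate 3. For the other pairs within groups it was 1.96 to 5.06. This ratio grows with depth, and EV untreated replicate 1 was the deepest library, at 29902246 counts. Without it, 5444 genes in place of 3392 passed the test for EV auxin against EV untreated, and 7 in place of 6 of the 9 members. RNA of Ctcf, which does not report on a protein degron, was 294 to 344 CPM (counts scaled to library size) in EV untreated, 359 and 364 in EV auxin, 328 to 350 in FL and 306 to 330 in H373R libraries. The 8 embryonic stem cell markers summed to between 9707 and 10670 TPM (transcript abundance scaled by gene length) in every library, and none was at 0. Of these 8, Sox2, Esrrb and Tfcp2l1 were lower and Klf4 higher after auxin, where 9.40% and 11.3% of all tested genes were. Against EV untreated, Nanog, Esrrb and Zfp42 were lower in FL libraries (19.2% of all tested genes) and Klf4 and Dppa5a higher (17.7%). In H373R libraries Sox2, Nanog, Esrrb, Zfp42 and Tfcp2l1 were lower (22.1%) and Klf4 higher (22.3%).

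The 2 naked cuticle genes lie on different chromosomes. In GENCODE M21 (GRCm38), Nkd2 occupies chr13:73818534-73847631 on the minus strand and Nkd1 chr8:88521354-88594884 on the plus strand. The 250 bases before each RefSeq start (GRCm38.p6, chr13:73847632-73847881 minus and chr8:88527383-88527632 plus, the latter inside the longer GENCODE model of Nkd1 but outside its exons) are shown because these paralogues had opposite patterns across the groups. CpG dinucleotides are in capitals.
Nkd2: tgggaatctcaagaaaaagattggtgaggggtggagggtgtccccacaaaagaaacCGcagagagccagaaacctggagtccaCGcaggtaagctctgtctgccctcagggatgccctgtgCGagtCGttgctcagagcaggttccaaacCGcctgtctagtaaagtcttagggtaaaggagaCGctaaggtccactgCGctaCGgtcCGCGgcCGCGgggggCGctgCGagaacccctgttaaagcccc
Nkd1: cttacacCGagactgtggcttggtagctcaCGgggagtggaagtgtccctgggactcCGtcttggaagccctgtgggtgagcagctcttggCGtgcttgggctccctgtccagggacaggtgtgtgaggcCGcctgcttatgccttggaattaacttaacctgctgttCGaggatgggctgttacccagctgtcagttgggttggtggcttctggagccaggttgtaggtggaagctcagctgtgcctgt
Both windows were 58.4% G and C, against a median of 52.4% over 32851 windows of the same length. The Nkd2 window held 14 CpGs and the Nkd1 window 6, where the median window held 6.

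Nkd2 was near the limit of detection after auxin and intermediate with FL CTCF. Its level was 8.59, 9.20 and 9.14 CPM in the EV untreated libraries (258, 188 and 249 counts) and 0.456 and 0.291 CPM in the EV auxin libraries (8 and 7 counts). FL libraries had 1.19, 1.90 and 1.94 CPM (25, 25 and 38 counts), and H373R libraries 0.258, 0.142 and 0.346 CPM (6, 3 and 9 counts). Every EV untreated library lay above every FL library, and every FL library above all EV auxin and H373R libraries. The last 2 groups overlapped.

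The EV untreated mean of Nkd2 was 8.98 CPM with an SD of 0.339 (n = 3), and the mean was 4.16% of that in EV auxin, 18.7% in FL and 2.77% in H373R libraries. Summed counts put EV auxin 24.8-fold below EV untreated, with an exact 95% counting interval of 14.9 to 44.6, which covers counting error only. FL libraries were 5.46-fold below EV untreated (4.37 to 6.90), and H373R libraries 35.0-fold below (21.98 to 59.4). H373R libraries were 6.41-fold below FL libraries (3.83 to 11.3). Because Nkd2 was chosen by its own values, these sizes can be overstated, and the intervals do not test a change. At 18 against 15 counts, H373R libraries held 70.9% of the EV auxin level, with an interval of 33.8% to 151%, so no difference between these groups was detectable at this depth.

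Nkd1, its paralogue, had the opposite pattern. It measured 9.92, 8.52 and 9.66 CPM in EV untreated and 19.2 and 19.3 CPM in EV auxin libraries. FL libraries had 13.1, 12.2 and 12.03 CPM, and H373R libraries 19.1, 19.4 and 19.0 CPM. EV auxin and H373R libraries were high, EV untreated libraries low and FL libraries between, without overlap between these levels. Nkd1 rose by 1.03 ± 0.083 on the log2 scale (± SE) from EV untreated to EV auxin (edgeR adjusted p = 3.14e-07). It was lower by 0.63 ± 0.084 in FL than in EV auxin libraries, a log2 fold change of -0.63 (edgeR adjusted p = 1.03e-04), yet still 0.41 ± 0.080 above EV untreated (edgeR adjusted p = 0.00106). H373R libraries exceeded FL libraries by 0.62 ± 0.075 (edgeR adjusted p = 1.33e-04). Against EV auxin, the H373R log2 fold change was -0.0063, with a 95% confidence interval of -0.17 to 0.16.

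**Figure D1:**
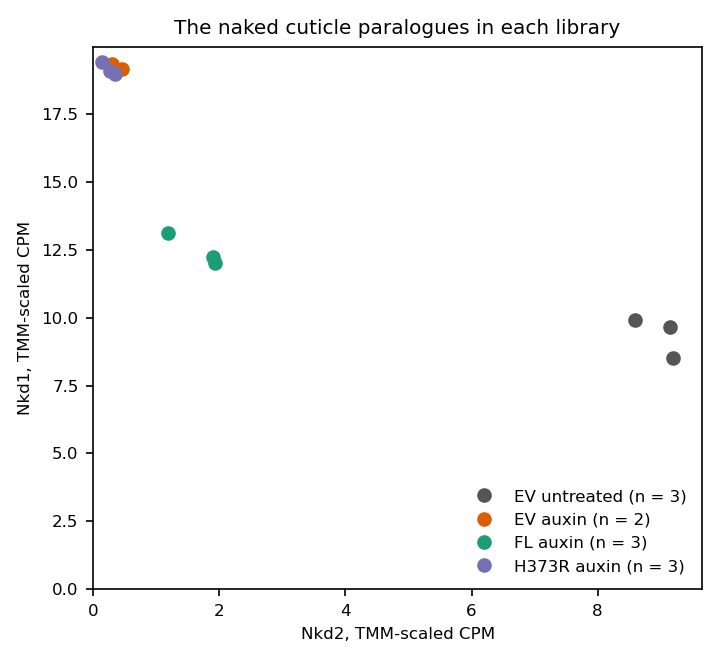
Nkd1 against Nkd2 in each of the 11 libraries, both in TMM-scaled CPM on linear axes starting at 0, coloured by group. EV untreated libraries sit at the lower right (Nkd2 near 9 CPM), EV auxin and H373R libraries at the upper left (Nkd1 near 19 CPM, Nkd2 below 0.5 CPM), and FL libraries between them.

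Per length, Nkd1 had the higher mean in every group, and the gap was wider in the auxin groups. In TPM, Nkd1 and Nkd2 overlapped in EV untreated libraries, at means of 7.73 and 6.99. In EV auxin libraries the means were 16.2 TPM for Nkd1 and 0.295 TPM for Nkd2, in FL libraries 9.99 and 1.27 TPM, and in H373R libraries 15.7 and 0.192 TPM.

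Of the 9 members other than Nkd2, 6 passed the test between EV auxin and EV untreated, where 20.7% of all tested genes passed. Nkd1, Tcf7, Tcf7l1 and Cdx1 rose (4 of 9, beside 11.3% of all genes), and Lef1 and Rnf43 fell (2 of 9, beside 9.40%). The median log2 fold change of the 9 was 0.28, beside 0.0087 over all tested genes. Between FL and EV auxin 6 passed (24.5% of all genes), with Cdx1 higher (11.1% of all genes) and Nkd1, Lef1, Tcf7, Tcf7l1 and Znrf3 lower in FL (13.4%), and the median was -0.30 beside -0.014. Between H373R and EV auxin 4 passed (21.7% of all genes), with Cdx1 higher (1647 of 16420 genes, or 10%) and Lef1, Tcf7 and Znrf3 lower in H373R (11.7%), and the median was -0.14 beside 0.00031. Without EV auxin replicate 1 this last count was 2. These 3 comparisons share the EV auxin libraries, so their directions are not independent of each other. The members were chosen with earlier results known, so a count above the share of all genes is a description only.

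H373R and FL libraries share no control. There 2 of the 9 members passed, Nkd1 and Tcf7l1, both higher in H373R, where 5.96% of all tested genes passed, 3.14% as higher and 2.82% as lower. The median of the 9 was 0.052 beside 0.0025. The count was 1 without FL replicate 2 or without H373R replicate 3, where Tcf7l1 missed the threshold. Against EV untreated, 5 of the 9 passed in FL (36.9% of all genes) and 5 in H373R libraries (44.4% of all genes). In both, Nkd1, Sp5 and Cdx1 were higher (17.7% of all genes in FL and 22.3% in H373R) and Lef1 and Znrf3 lower (19.2% and 22.1%), from comparisons that share the EV untreated libraries. Over libraries left out in turn, the FL count ranged from 4 to 6 and the H373R count from 5 to 7, the latter reached without EV untreated replicate 1. The FL count was 4 without EV untreated replicate 2 or 3 or FL replicate 1 or 2, and with DESeq2.

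**Figure D2:**
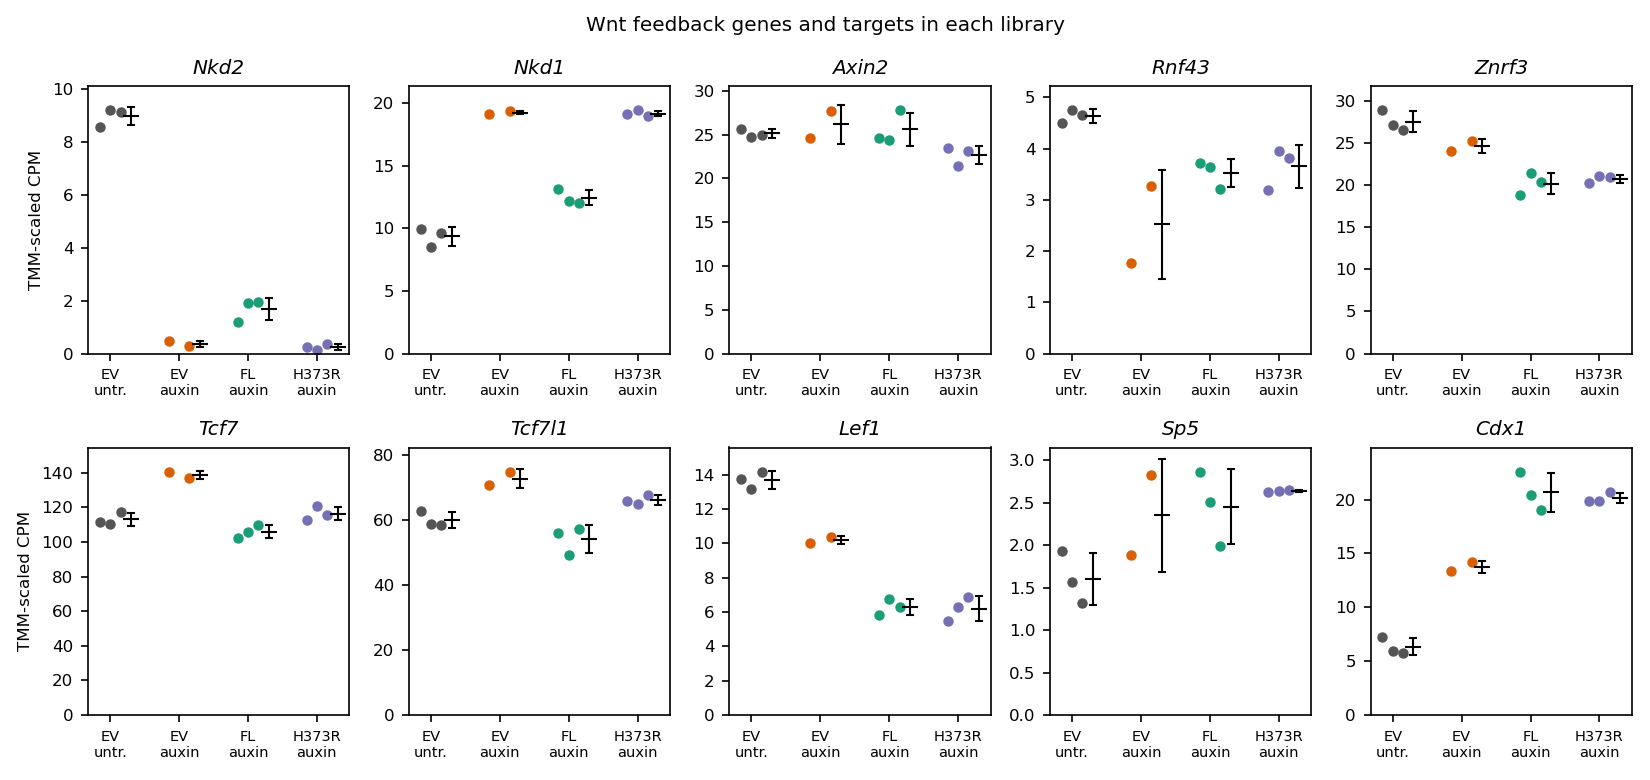
Level of each of the 10 genes in each library in TMM-scaled CPM, on linear axes that start at 0. Points are libraries and bars to their right the mean ± SD of the group (n = 3, 2, 3 and 3). The mean of Nkd2 is 8.98 CPM in EV untreated and 0.373 CPM in EV auxin libraries, that of Nkd1 9.37 and 19.3 CPM, and Axin2 lies between 21.5 and 27.8 CPM in all libraries.

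Axin2, a widely used readout of Wnt activity, passed the test in none of the 6 comparisons by edgeR, nor by DESeq2 or limma. Its unadjusted edgeR p was under 0.05 in 2 of them. EV untreated libraries had 25.7, 24.8 and 25.0 CPM, EV auxin libraries 24.6 and 27.7, FL libraries 24.7, 24.5 and 27.8, and H373R libraries 23.5, 21.5 and 23.1. The H373R libraries were the lowest and did not overlap the FL or EV auxin libraries. The change after auxin was 0.062 ± 0.079 on the log2 scale (edgeR adjusted p = 0.641), with a 95% confidence interval of -0.11 to 0.23. H373R differed from FL by -0.18 ± 0.073 (interval -0.33 to -0.023, edgeR adjusted p = 0.177) and from EV auxin by -0.21 ± 0.080 (edgeR adjusted p = 0.0742). The latter passed without EV untreated replicate 1 (edgeR adjusted p = 0.0295) and in a fit of only the 2 groups (0.0150).

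The 2 receptor-clearing ligases were lower than in EV untreated libraries in some groups. Rnf43 measured 4.49, 4.75 and 4.66 CPM in EV untreated and 1.77 and 3.28 CPM in EV auxin libraries. FL libraries had 3.72, 3.65 and 3.21 CPM and H373R libraries 3.18, 3.96 and 3.81 CPM, all below every EV untreated library. The 2 EV auxin libraries lay far apart, on 31 and 79 counts. The fall after auxin was -0.82 ± 0.19 (edgeR adjusted p = 0.00532), and without EV auxin replicate 1, the lower library, it was -0.49 and missed the threshold (0.0769), as it did with limma on log2(TPM + 1) without a TPM filter (limma adjusted p = 0.0589). Without replicate 2, Rnf43 passed as higher in FL and H373R than in EV auxin (log2 fold changes of 1.00 and 1.04, edgeR adjusted p = 0.0139 and 0.0130), which it did not with both libraries (0.43 ± 0.20 and 0.48 ± 0.19, edgeR adjusted p = 0.144 and 0.0942). Against EV untreated, the values were -0.39 ± 0.16 in FL (edgeR adjusted p = 0.0664) and -0.34 ± 0.15 in H373R libraries (0.0773). Both passed when EV untreated replicate 1 or either EV auxin library was left out, with adjusted p between 0.0229 and 0.0443.

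Znrf3 had 28.9, 27.2 and 26.6 CPM in EV untreated and 24.1 and 25.3 CPM in EV auxin libraries. It had 18.9, 21.4 and 20.3 CPM in FL and 20.3, 21.1 and 21.0 CPM in H373R libraries. All auxin libraries were below all EV untreated libraries, and those with reintroduced CTCF were the lowest. The change after auxin alone, -0.16 ± 0.073, did not pass (edgeR adjusted p = 0.152). FL was lower than EV untreated by a log2 fold change of -0.45 ± 0.067 (edgeR adjusted p = 1.12e-04) and H373R by -0.41 ± 0.065 (edgeR adjusted p = 1.29e-04). Against EV auxin the log2 fold changes were -0.30 ± 0.076 in FL (edgeR adjusted p = 0.0106) and -0.25 ± 0.075 in H373R libraries (edgeR adjusted p = 0.0241). The FL call was lost without EV auxin replicate 2 (edgeR adjusted p = 0.135) or FL replicate 1 (0.0507). The H373R call was lost without either EV auxin library or any single H373R library (0.0634 to 0.198), and with no low-count filter (0.0780).

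The TCF/LEF factors split. Tcf7, an activator once bound by beta-catenin, had 111.5, 110.5 and 117.2 CPM in EV untreated and 140.5 and 137.1 CPM in EV auxin libraries. FL libraries had 102.0, 105.9 and 109.9 CPM, and H373R libraries 112.9, 120.6 and 115.6 CPM. Both EV auxin libraries were above all others. The rise after auxin was 0.30 ± 0.053 (edgeR adjusted p = 9.32e-04), and FL lay below EV auxin by a log2 fold change of -0.39 ± 0.054 (edgeR adjusted p = 1.28e-04). H373R lay below EV auxin at -0.25 ± 0.053 (edgeR adjusted p = 0.00351), a call lost without EV auxin replicate 1 (edgeR adjusted p = 0.0506). H373R exceeded FL by 0.14 ± 0.048 with an interval of 0.032 to 0.24, which did not pass after adjustment over all genes (edgeR adjusted p = 0.118).

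Tcf7l1, the main TCF repressor in embryonic stem cells, had 62.9, 58.9 and 58.6 CPM in EV untreated and 70.8 and 74.9 CPM in EV auxin libraries. It had 56.2, 49.3 and 57.2 CPM in FL and 66.0, 64.9 and 67.8 CPM in H373R libraries. H373R libraries thus lay between EV auxin and EV untreated, above every FL library. The rise after auxin was 0.28 ± 0.066 (edgeR adjusted p = 0.00715), and it was lost without EV auxin replicate 2 (edgeR adjusted p = 0.146). FL was below EV auxin at -0.42 ± 0.067 (edgeR adjusted p = 4.09e-04). H373R exceeded FL by 0.28 ± 0.061 (edgeR adjusted p = 0.0104). That call was lost without FL replicate 2 (edgeR adjusted p = 0.0532) or H373R replicate 3 (0.0678). H373R against EV untreated, at 0.14 ± 0.059, did not pass with all libraries (edgeR adjusted p = 0.0679) and passed without EV untreated replicate 1 (0.0147) or FL replicate 2 (0.0408).

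Lef1, the TCF/LEF factor that Wnt itself induces, fell stepwise. It measured 13.8, 13.2 and 14.2 CPM in EV untreated, 10.04 and 10.4 in EV auxin, 5.82, 6.76 and 6.32 in FL and 5.46, 6.27 and 6.89 CPM in H373R libraries. FL and H373R libraries overlapped each other and lay below both other groups, at 46.0% and 45.3% of the EV untreated mean. The fall after auxin was -0.43 ± 0.099 (edgeR adjusted p = 0.00601), and it missed the threshold without EV auxin replicate 1 (edgeR adjusted p = 0.0586) and with limma on log2(TPM + 0.1) (limma adjusted p = 0.0643) or without a TPM filter (0.103). Against EV auxin, Lef1 was lower in FL at -0.71 ± 0.11 (edgeR adjusted p = 3.87e-04) and in H373R libraries at -0.72 ± 0.11 (edgeR adjusted p = 3.95e-04). H373R and FL differed by -0.0076, with an interval of -0.24 to 0.22. Lef1 shares 1208 of its exonic bases with an antisense gene, Gm43352, which was not analysed here, and the sources used here do not give whether counting used strand, so reads of Lef1 and Gm43352 cannot be told apart. Axin2 and Tcf7l1 share 209 and 179 exonic bases with antisense genes, and the same limit holds for them.

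Cdx1, a caudal-type homeobox factor, rose stepwise. EV untreated libraries had 7.22, 5.97 and 5.77 CPM, EV auxin libraries 13.3 and 14.2, FL libraries 22.6, 20.4 and 19.0, and H373R libraries 19.8, 19.9 and 20.7. FL and H373R libraries overlapped, and both lay above EV auxin, which lay above EV untreated. The rise after auxin was 1.12 ± 0.11 (edgeR adjusted p = 2.85e-06). FL exceeded EV auxin by a further 0.59 ± 0.10 (edgeR adjusted p = 7.16e-04) and H373R by 0.55 ± 0.099 (edgeR adjusted p = 0.00132). H373R and FL differed by -0.040 with an interval of -0.22 to 0.14. As means, EV auxin stood at 218% of EV untreated, FL at 327% and H373R at 318%.

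Sp5, a zinc finger factor of the same family as Sp8, was low throughout. It had 58, 32 and 36 counts in EV untreated (1.93, 1.57 and 1.32 CPM), and 33 and 68 counts in EV auxin libraries (1.88 and 2.82 CPM). FL libraries had 2.86, 2.51 and 1.99 CPM, and H373R libraries 2.62, 2.64 and 2.65 CPM. EV auxin and EV untreated libraries overlapped, and the change of 0.57 ± 0.22 did not pass (edgeR adjusted p = 0.0776). It passed without EV untreated replicate 1 (edgeR adjusted p = 0.0165) or EV auxin replicate 1 (0.0426). Against EV untreated, H373R was higher by 0.70 ± 0.19 (edgeR adjusted p = 0.00656) and FL by 0.60 ± 0.20 (edgeR adjusted p = 0.0291). The FL call was lost without EV untreated replicate 2 or 3 or FL replicate 1 or 2 (edgeR adjusted p = 0.0572 to 0.170), with DESeq2 (DESeq2 adjusted p = 0.0552) and with limma without a TPM filter (limma adjusted p = 0.104).

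**Figure D3:**
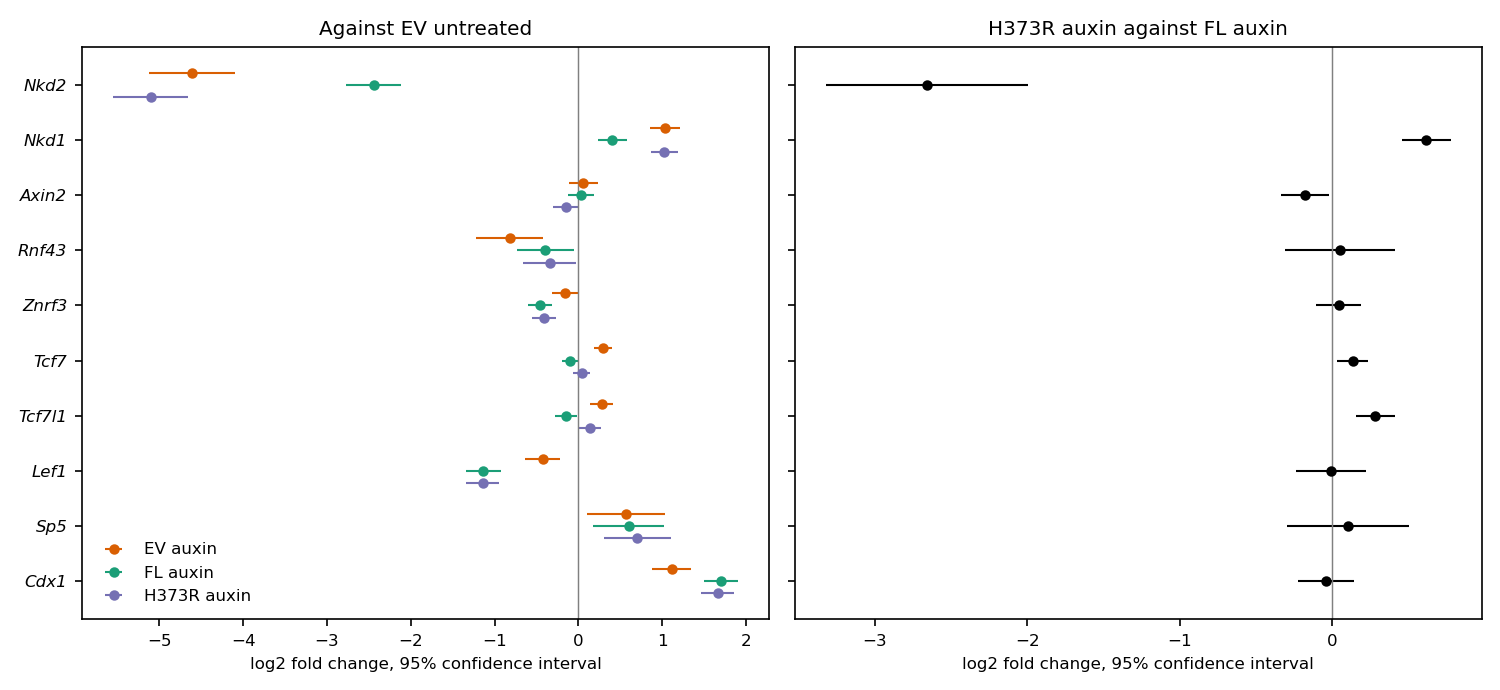
Log2 fold change of each gene with its 95% confidence interval, on the left for EV auxin, FL auxin and H373R auxin against EV untreated, on the right for H373R auxin against FL auxin. On the right, Nkd1 (0.62) and Tcf7l1 (0.28) lie above 0 and Nkd2 (-2.66) far below it. Nkd2 is shown for its size only, since its values chose it.

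The summed levels of markers of other cell types differed between groups. The primitive endoderm, mesendoderm and trophoblast sums of EV auxin libraries already lay outside the EV untreated range. The 7 primitive endoderm markers summed to 18.7 to 19.9 TPM in EV untreated, 22.1 to 22.7 in EV auxin, 63.5 to 68.6 in FL and 40.9 to 45.6 TPM in H373R libraries, and none was at 0. The 6 mesendoderm markers, which include the Wnt target T, summed to 11.3 to 12.6, 15.7 to 15.8, 16.9 to 21.9 and 16.2 to 18.9 TPM in the same order. The 6 trophoblast markers, which include Cdx2, summed to 131 to 139, 118 to 120, 94.0 to 105 and 112 to 116 TPM. Of the 4 tested, Tfap2c was lower than in EV untreated in FL and H373R libraries (19.2% and 22.1% of all tested genes were lower). Cdx2 was higher in FL (17.7% of all tested genes) and Eomes and Hand1 in H373R libraries (22.3%). The 8 feeder fibroblast markers summed to 65.5 to 70.8, 65.0 to 71.5, 81.2 to 91.5 and 85.6 to 90.1 TPM. Lum was at 0 in EV untreated and EV auxin and Postn in FL and H373R libraries. Their part in the stepwise changes of Cdx1, Lef1 and Znrf3 was not tested. In bulk RNA, fewer cells of a type and less RNA per cell cannot be told apart.

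The rank of the members by TPM, which is scaled by gene length, put Tcf7 first and Tcf7l1 next in every group, at mean TPM of 140.8 and 57.6 in EV untreated libraries. Axin2 followed at 17.2 TPM, then Cdx1 at 13.6 and Znrf3 at 13.1, which overlapped. Below Nkd1 and Nkd2 came Lef1 at 5.87, Sp5 at 2.87 and Rnf43 at 2.66 TPM, the latter 2 overlapping. After auxin Cdx1 took the third place at 30.1 TPM and Nkd2 the last. With FL CTCF, Cdx1 at 43.2 TPM overlapped Tcf7l1 at 50.5, while in H373R libraries they were apart at 42.9 and 62.9 TPM. In H373R libraries Nkd1 overlapped Axin2, at 15.7 and 15.4 TPM.

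Promoter sequence was compared because the series title concerns G-quadruplex binding by CTCF. RefSeq windows of 250 bases (GRCm38.p6) were found for 8 of the 10 members, 13 windows in all. Both strands were searched for CTTTGAT, a TCF/LEF site, for the core of the CTCF motif, and for a G-quadruplex pattern of 4 runs of at least 3 G with 1 to 7 bases between them. The bases between runs could themselves be G, so an unbroken stretch of G can hold several runs, as in the Lef1 match shown. Over all 32851 windows, 3.21% held the first, 0.816% the second and 16.7% the third. The G-quadruplex pattern was found before RefSeq starts of Axin2, Lef1, Tcf7 and Tcf7l1. The Tcf7 match lies inside the longer GENCODE model of the gene, and the window before the GENCODE start of Tcf7 held none. The Tcf7l1 match overlaps the GENCODE start of Tcf7l1. For Axin2, Lef1 and Tcf7 a match is shown in capitals (10 bases either side in lower case, on the gene's strand).
Axin2 (chr11:108920268-108920317): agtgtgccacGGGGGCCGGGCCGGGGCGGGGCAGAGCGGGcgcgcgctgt
Lef1 (chr3:131110150-131110186): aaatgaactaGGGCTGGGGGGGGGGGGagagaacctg
Tcf7 (chr11:52282630-52282682, minus strand): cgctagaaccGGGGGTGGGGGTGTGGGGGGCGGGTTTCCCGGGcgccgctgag
The single TCF/LEF match lay before Sp5, shown the same way.
Sp5 (chr2:70474809-70474835): gcaaggccccCTTTGATcaggaaaatc
The windows of Nkd1, Nkd2 and Rnf43 held none of these patterns, and the CTCF core was in none of the 13 windows. The Nkd1 and Rnf43 windows lie inside the longer GENCODE models of these genes. The bases before those GENCODE starts were not searched. The genes with a G-quadruplex match moved in different directions after auxin, with Tcf7 and Tcf7l1 higher, Lef1 lower and Axin2 at 0.062.

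Other genes of the pathway were read from 7 lists with 102 genes, of which 84 passed the filter on low counts. After auxin 21 of the 84 passed the test, or 25% beside 20.7% of all tested genes, 14 higher and 7 lower. Between H373R and FL 13 passed, or 15.5% beside 5.96%, 5 higher and 8 lower in H373R. FL differed from EV untreated in 46 (54.8% beside 36.9%) and H373R in 51 (60.7% beside 44.4%). The median log2 fold change of the 84 after auxin was 0.038.

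The first list holds Wnt ligands, their secretion factors Porcn and Wls, and R-spondins, which spare Frizzled from Rnf43 and Znrf3. Of its 16 tested genes 2 rose after auxin, where 11.3% of all tested genes rose. Rspo4 had 2.80, 3.87 and 2.42 CPM in EV untreated and 5.25 and 6.14 CPM in EV auxin libraries, a rise of 0.95 ± 0.17 (edgeR adjusted p = 7.56e-04). Wnt7b rose by 0.44 ± 0.087 (edgeR adjusted p = 0.00215). Wnt5a had 0.533, 0.441 and 0.698 CPM in EV untreated, 0.627 and 0.332 in EV auxin, 1.00, 1.44 and 0.867 in FL and 0.516, 0.377 and 0.50 CPM in H373R libraries. It was lower in H373R than in FL libraries at -1.18 ± 0.30 (edgeR adjusted p = 0.0331), the largest change of the list there, and the call was lost when any FL or H373R library other than FL replicate 3 was left out (0.0639 to 0.130) and with limma without a TPM filter (limma adjusted p = 0.110). Rspo4 and Wnt7b were higher in H373R than in FL libraries, by 0.56 ± 0.14 for Rspo4 (edgeR adjusted p = 0.0232) and 0.61 ± 0.078 for Wnt7b (edgeR adjusted p = 2.18e-04). Against EV untreated, 11 of the 16 were higher in FL and 9 in H373R libraries, Porcn among both, where 17.7% and 22.3% of all tested genes were higher.

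Of 17 tested receptors, 5 rose after auxin (Fzd2, Fzd6, Fzd8, Fzd9 and Lgr6) and 2 fell (Ror1 and Ror2), beside 11.3% and 9.40% of all tested genes. Lgr6, an R-spondin receptor, had 4.13, 3.82 and 5.18 CPM in EV untreated, 9.01 and 8.47 in EV auxin, 4.20, 5.01 and 4.79 in FL and 9.68, 8.68 and 8.77 CPM in H373R libraries. Its EV auxin and H373R libraries were high and its EV untreated and FL libraries low. The rise after auxin was 0.98 ± 0.13 (edgeR adjusted p = 4.89e-05), and H373R exceeded FL by 0.97 ± 0.12 (edgeR adjusted p = 1.55e-04). Ror2, a receptor for Wnt5a, had 27.4, 20.6 and 21.8 CPM in EV untreated and 11.9 and 12.7 CPM in EV auxin libraries, a change of -0.92 ± 0.11 (edgeR adjusted p = 3.10e-05). It measured 22.2 to 24.8 CPM in FL and at 19.9 to 21.5 CPM in H373R libraries. Ror1 was barely counted after auxin, with 5 counts against 50, 5.36-fold below EV untreated (exact 95% counting interval 2.15 to 17.2). Its call was lost without either EV auxin library (edgeR adjusted p = 0.0966 and 0.147). Fzd4 was lower in H373R than in FL libraries at -0.33 ± 0.092 (edgeR adjusted p = 0.0473), a call lost when any of 8 libraries was left out, with the replicate number as a block (edgeR adjusted p = 0.0637), with no low-count filter (0.0537), with DESeq2 (DESeq2 adjusted p = 0.0684) and with limma on log2(TPM + 1) (limma adjusted p = 0.118).

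Of 11 tested secreted and membrane inhibitors, Sfrp2 and Sfrp5 rose and Sfrp1 and Wif1 fell after auxin, beside the same shares of all genes. Sfrp5 had 5.73 to 7.99 CPM in EV untreated, 13.8 and 14.1 in EV auxin, 9.19 to 10.3 in FL and 16.1 to 17.96 CPM in H373R libraries. It rose after auxin by 1.02 ± 0.11 (edgeR adjusted p = 1.24e-05) and was higher in H373R than in FL libraries by 0.81 ± 0.10 (edgeR adjusted p = 1.69e-04). Sfrp2 rose by 0.95 ± 0.069 (edgeR adjusted p = 1.20e-07). Wif1 changed by -1.16 ± 0.38 (edgeR adjusted p = 0.0400). Without EV auxin replicate 1 the Wif1 change was -0.73. The Wif1 call was lost with 4 other libraries left out in turn, in a fit of only the 2 groups (edgeR adjusted p = 0.0770) and with DESeq2 (DESeq2 adjusted p = 0.0914). It was also lost with limma on log2(TPM + 1) (limma adjusted p = 0.0647), on log2(TPM + 0.1) (0.0745) and without a TPM filter (0.0812). Dkk1, which blocks LRP receptors, had 0.441 to 0.799 CPM in EV untreated, 0.513 and 0.415 in EV auxin, 2.24, 1.29 and 2.04 in FL and 0.602, 0.943 and 0.769 CPM in H373R libraries. It was high in FL libraries alone, and lower in H373R than in FL at -1.32 ± 0.26 (edgeR adjusted p = 0.00669). The Dkk1 call was lost with limma on log2(TPM + 0.1) (limma adjusted p = 0.0549) and without a TPM filter (0.0735).

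Of 17 genes of the Dishevelled and destruction complex group, 1 rose and 1 fell after auxin, where 11.3% and 9.40% of all tested genes did. Axin1 rose by 0.25 ± 0.057 (edgeR adjusted p = 0.00566) and Csnk1a1, the priming kinase of beta-catenin, changed by -0.24 ± 0.060 (edgeR adjusted p = 0.00933). Both calls were lost without EV auxin replicate 2 (edgeR adjusted p = 0.0890 and 0.104). Csnk1a1 also lost its call in a fit of only the 2 groups (edgeR adjusted p = 0.0580) and with limma without a TPM filter (limma adjusted p = 0.0568). Of 11 nuclear partners of beta-catenin, the co-activators Bcl9 (0.34 ± 0.064, edgeR adjusted p = 0.00135), Bcl9l (0.45 ± 0.087, edgeR adjusted p = 0.00170) and Pygo1 (0.43 ± 0.14, edgeR adjusted p = 0.0455) rose, beside 11.3% of all tested genes. Pygo1 lost its call when either EV auxin library, any EV untreated library or any of 3 others was left out, with the replicate number as a block (edgeR adjusted p = 0.0652), with DESeq2 (DESeq2 adjusted p = 0.140) or its size factors in edgeR (0.0535), with no low-count filter (0.0566), in a fit of only the 2 groups (0.0797) and with limma on log2(TPM + 1) (limma adjusted p = 0.145). Bcl9l was also higher in H373R than in FL libraries by 0.31 ± 0.077 (edgeR adjusted p = 0.0279), a call lost when any of 6 libraries was left out. That call was also lost with limma on log2(TPM + 0.1) (limma adjusted p = 0.0529) and without a TPM filter (0.0923).

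Of 8 other Wnt targets tested, Myc rose after auxin by 0.61 ± 0.080 (edgeR adjusted p = 5.57e-05), where 11.3% of all tested genes rose. Lower in H373R than in FL libraries were 4 of the 8 (T, Cdx2, Myc and Ccnd1), beside 2.82% of all tested genes. T, the mesoderm factor Brachyury, had 0.632, 0.441 and 1.03 CPM in EV untreated, 1.20 and 0.955 in EV auxin, 3.72, 2.43 and 3.62 in FL and 1.38, 1.32 and 1.77 CPM in H373R libraries. FL libraries were the highest, with no overlap. H373R differed from FL by -1.15 ± 0.22 (edgeR adjusted p = 0.00487). The T call was lost with limma on log2(TPM + 0.1) (limma adjusted p = 0.0667) and without a TPM filter (0.0823). Cdx2 had 2.48, 1.37 and 2.09 CPM in FL and 0.602, 1.04 and 0.885 CPM in H373R libraries, a difference of -1.28 ± 0.28 (edgeR adjusted p = 0.0126). That call was lost without FL replicate 1 or 3 or H373R replicate 1 or 3 (edgeR adjusted p = 0.0503 to 0.0697). It was also lost with limma on log2(TPM + 1) (limma adjusted p = 0.0558), on log2(TPM + 0.1) (0.0663) and without a TPM filter (0.115). The primitive endoderm marker sum was also highest in FL libraries, while the mesendoderm sums of FL and H373R libraries overlapped, and their part in these differences was not tested. Of 4 genes repressed by Tcf7l1, the pluripotency factors Esrrb (-0.33 ± 0.046, edgeR adjusted p = 1.08e-04) and Tfcp2l1 (-0.29 ± 0.066, edgeR adjusted p = 0.00548) fell after auxin, beside 9.40% of all tested genes. The Tfcp2l1 call was lost without EV auxin replicate 1 (edgeR adjusted p = 0.0718) and with limma without a TPM filter (limma adjusted p = 0.0590).

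**Figure D4:**
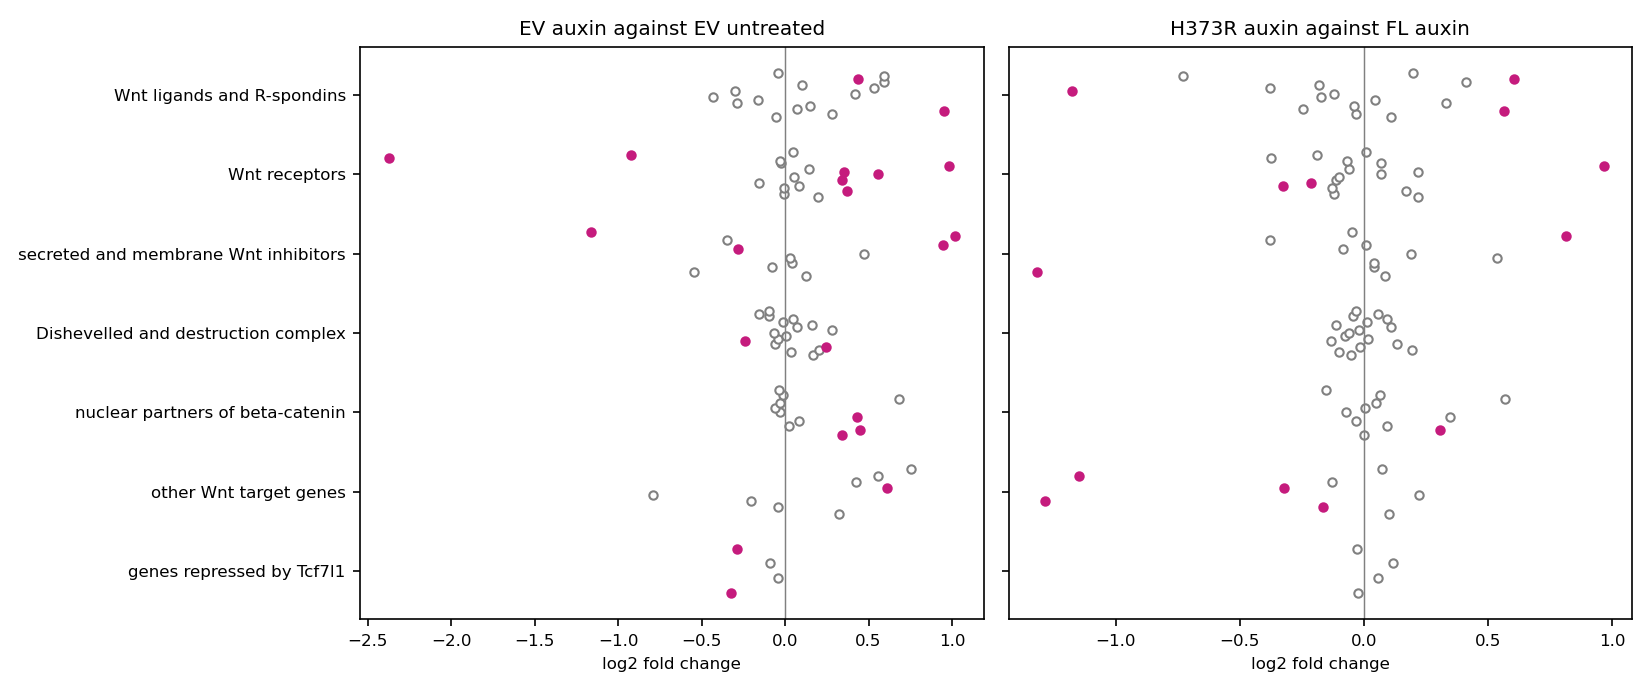
Log2 fold change of each tested gene of the 7 pathway lists, for EV auxin against EV untreated (left) and H373R auxin against FL auxin (right). Filled points passed an adjusted p of 0.05 over all 16420 tested genes (21 on the left, 13 on the right) and open points did not.

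The genes whose levels followed Nkd2 most closely over the 11 libraries, by Pearson correlation of log2 CPM, were Ddx18 (r = 0.987), Tdrd12 (0.983), Scn3a (0.983), C1qbp (0.983) and Ank (0.982). These are descriptions of points that share 4 groups. Scn3a, a sodium channel subunit, had the level and size of change most like Nkd2, with 3.76, 4.99 and 4.81 CPM in EV untreated, 0.342 and 0.249 in EV auxin, 0.811, 1.44 and 0.816 in FL and 0.215, 0.283 and 0.269 CPM in H373R libraries. Ank, a pyrophosphate transporter, went from 17.1 to 17.6 CPM in EV untreated to 8.21 and 8.72 in EV auxin, 10.8 to 11.8 in FL and 7.88 to 8.30 CPM in H373R libraries. Tdrd12 went from 20.8 to 22.9 CPM in EV untreated to 9.75 in both EV auxin libraries, with 12.8 to 13.9 in FL and 7.55 to 7.92 CPM in H373R libraries. Of the other members, Nkd1 had r = -0.978 with Nkd2, Cdx1 -0.781, Sp5 -0.773, Tcf7l1 -0.550 and Tcf7 -0.437. Lef1 had 0.673, Znrf3 0.609, Rnf43 0.547 and Axin2 0.372.

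The genes around Nkd2 had smaller log2 fold changes than Nkd2 itself. Nkd2 was chosen by its own values, so this contrast is a description only and does not test how far the change reaches. In GENCODE M21, 14 tested protein-coding genes lie within 500 kb of it, and their log2 fold changes after auxin ran from -0.87 (Ahrr, named after its value was seen) to 0.24 with a median of -0.026, where Nkd2 was at -4.61 ± 0.24. The nearest, the potassium-chloride cotransporter Slc12a7, had 120.3, 112.1 and 113.1 CPM in EV untreated and 119.8 and 132.5 CPM in EV auxin libraries, a change of 0.13 ± 0.063 (edgeR adjusted p = 0.160). It passed without EV untreated replicate 1 (edgeR adjusted p = 0.0482). Trip13 on the other side was at -0.093 ± 0.061 (edgeR adjusted p = 0.315) and passed without the same library (0.0200). Brd9 was at 0.098 ± 0.084 (edgeR adjusted p = 0.455) and Tppp at 0.24 ± 0.17 (edgeR adjusted p = 0.357). Of the 14, 1 passed the test after auxin, as lower (20.7% of all tested genes passed, 9.40% as lower). Against EV untreated, 3 passed in FL libraries (36.9% of all tested genes), 1 higher and 2 lower (17.7% and 19.2%). In H373R libraries 5 passed (44.4%), 1 higher and 4 lower (22.3% and 22.1%). Slc12a7 was the higher one in both, by 0.38 ± 0.056 in FL (edgeR adjusted p = 1.21e-04) and 0.44 ± 0.056 in H373R libraries (edgeR adjusted p = 1.53e-05). Ahrr was lower in both, at -1.42 ± 0.31 in FL (edgeR adjusted p = 0.00196) and -1.08 ± 0.27 in H373R libraries (edgeR adjusted p = 0.00416). Against EV untreated, the 14 ran from -1.42 to 0.38 in FL and from -1.08 to 0.44 in H373R libraries, where Nkd2 was at -2.44 ± 0.16 and -5.10 ± 0.21.

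**Figure D5:**
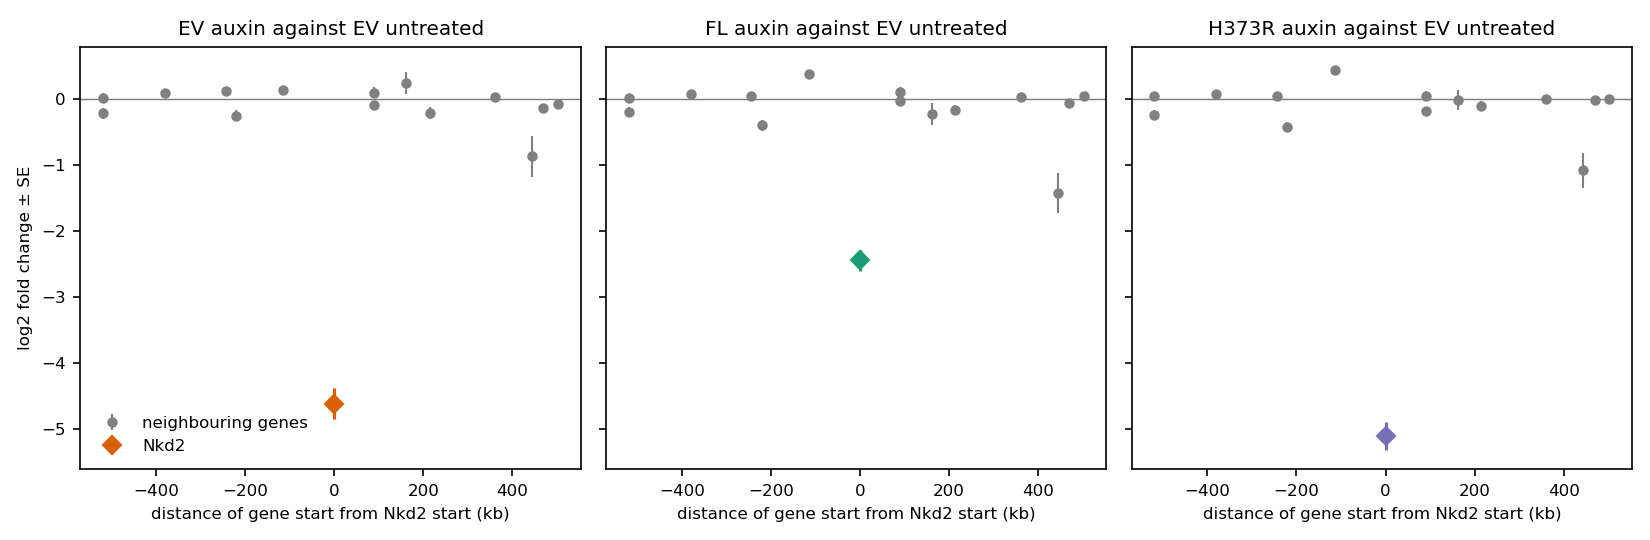
Log2 fold change ± SE against EV untreated of the 14 tested protein-coding genes within 500 kb of Nkd2, by the distance of their start from the Nkd2 start in kb, for EV auxin, FL auxin and H373R auxin. Nkd2 (diamond at 0 kb) lies below all 14 neighbours in each panel. It is shown for its size only, since its values chose it.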

How the data were processed

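RNA from 11 libraries was column-purified and sequenced from strand-specific libraries, per the labels' protocols. The authors deposited raw counts per gene symbol and, for the same libraries, TPM. The submitters' processing notes name featureCounts, Subread 2.0.3, DESeq2, mm10 and GRCm38; the aligner, annotation and strand setting of counting are not given in the sources used here. The counts went into edgeR 4.0.16 (R 4.3.3) with TMM scaling, filterByExpr by group, group means over all 11 libraries, the quasi-likelihood F test, Benjamini-Hochberg adjustment over 16420 genes and a threshold of 0.05. CPM are TMM-scaled. For correlations, log2 CPM had a prior count of 2. Confidence intervals of log2 fold changes are not adjusted for the number of genes.

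Named were all members, from each pathway list up to 3 called genes with the largest change after auxin and up to 2 between H373R and FL, the 5 genes most correlated with Nkd2, and its 5 nearest tested neighbours; of the neighbours, 4 are reported here. Other genes are named where they make up a list's count. The members and lists were chosen with earlier results of these data known. Alternatives were DESeq2 1.42.0, its size factors in edgeR, no filter, only the 2 groups, a replicate block, limma 3.58.1 on log2(TPM + 1) or log2(TPM + 0.1) where 2 libraries reached a TPM of 1, no TPM filter, and each library left out. The scripts were tested on simulated counts of 16420 genes, 200 of them changed 2-fold in EV auxin. There edgeR recovered 92.5% (7 false calls), DESeq2 90.5% (10 false calls) and limma 88.5% (10 false calls).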

Additional observations from a re-analysis of the deposited data

How the results depend on the processing

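Over 19 alternative settings and 6 comparisons, 982 of 1026 values of the 9 members stayed on the same side of the threshold, 23 calls were lost, 21 were gained, and no called value changed sign. Leaving out libraries in turn, the genes passing ranged from 1569 to 5444 for EV auxin against EV untreated, 1879 to 5800 for FL against EV auxin, 1502 to 5397 for H373R against EV auxin, and 510 to 2323 for H373R against FL. The highest of each came without EV untreated replicate 1. The members passing, Nkd2 aside, ranged from 5 to 7, 5 to 6, 2 to 5 and 1 to 2 in the same order, and from 4 to 6 and 5 to 7 for FL and H373R against EV untreated. Fitting only the 2 groups gave 2016 genes for EV auxin against EV untreated, 5909 for H373R against EV auxin and 1815 for H373R against FL. In the latter 2, limma on log2(TPM + 1) with no TPM filter gave 2335 and 588. The cause was not tested. For Nkd2 the log2 fold change after auxin ran from -4.92 to -4.29 over the fits of counts and reached -2.63 on log2(TPM + 1), a scale that understates changes of low genes; for H373R against EV auxin, Nkd2 did not pass the filter when only those groups were fitted.

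Libraries with the same replicate number mostly did not deviate together (r from -0.087 to 0.28 over 15 pairs, 3 of them over 0.1). Of 30 pairs with different numbers, 1 was over 0.1, and the median r was -0.016 with the same number and 0.015 with different numbers. The same-number pairs of EV untreated and FL libraries had r of 0.28, 0.12 and 0.096. The numbers were not taken to pair the libraries. With the replicate number as a block, 3197 genes passed for EV auxin against EV untreated, 3978 and 3532 for FL and H373R against EV auxin, 942 for H373R against FL, and 6142 and 7436 for FL and H373R against EV untreated. The block changed no call among the 9 members; of the other named genes, it ended the calls of Pygo1 after auxin and Fzd4 between H373R and FL. At 15 and 18 counts in EV auxin and H373R libraries, depth limits how far these groups can be told apart for Nkd2.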
